A study of Mus musculus with 12 samples.

Results

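Serpins are a large family of protease inhibitors that trap a protease by offering it a bait loop and locking it in a covalent complex once the loop is cut. Members of clade B, the ov-serpins, mostly lack a classical secretion signal and act inside the cell or at its surface, where they guard leukocytes against their own granule proteases. In bone, osteoclasts resorb matrix with secreted proteases, and the plasminogen activator system, which some serpins inhibit, acts at the surface of these cells and of their macrophage-like precursors.

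The genes described here are 6 clade B serpins, Serpinb2, Serpinb6a, Serpinb6b, Serpinb8, Serpinb9 and Serpinb9b, out of 47643 genes in the count table and out of 68 genes in it whose symbol begins with Serpin. They were picked by name with their differences from the unstimulated cells already known, Serpinb9b because it was higher in both stimulated groups, so their values against the unstimulated cells, and the counts of members called there, are a description, and no p is given for them. All 6 passed the filter on low counts that left 13681 genes for testing.

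RNA was sequenced from bulk cultures of osteoclasts on day 3 of differentiation from bone marrow cells (BMMs) of BALB/c wild-type mice, grown with M-CSF and RANKL, the cytokines that drive osteoclast formation. The 3 groups of 4 libraries were unstimulated cells (OCsCtr), cells given sorted eosinophils from IL-5tg/4get mice at 2 eosinophils per BMM (OCsEo), and cells given the supernatant of eosinophils at a 1:2 dilution (OCsEoS). The stimuli were present for the first 48 h and were then washed off before a further day of culture, so OCsEo cultures could still hold eosinophils from a transgenic donor, and these donors differed in genotype from the BMMs. The study's methods call the libraries of a group biological replicates. The labels do not say which animals or cultures they came from, and the tests measure the spread between these libraries.

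The libraries held 27837530 to 40327869 counts assigned to genes. All 9 osteoclast markers, Acp5 and Ctsk among them, were expressed in every group, and 7 of the 9 were called lower in each stimulated group against OCsCtr. In bulk RNA, fewer cells of a type and less RNA per cell cannot be told apart. A gene was called changed at an adjusted p under 0.05 in edgeR's quasi-likelihood test, Benjamini-Hochberg adjusted over all genes tested, with an absolute log2 fold change over 0.5. Levels are in CPM, the counts per 1000000 counts of a library after scaling by edgeR's TMM factors, and an interval is the 95% interval of the fitted difference.

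The 6 genes lay at 2 places in the genome. On GRCm38, Serpinb6b (chr13:32965209-32979067), Serpinb9 (chr13:33003250-33017957) and Serpinb9b (chr13:33027416-33041884) stood in a row on the plus strand of chromosome 13, with 24.2 kb between Serpinb6b and Serpinb9 and 9.5 kb between Serpinb9 and Serpinb9b. Serpinb6a (chr13:33917918-34002794) lay 876 kb further on, on the minus strand. Serpinb2 (chr1:107511423-107535478) and Serpinb8 (chr1:107590006-107610484) were both on the plus strand of chromosome 1, 54.5 kb apart.

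The coding sequences fell into close pairs. Serpinb9 and Serpinb9b were 86.4% identical over their aligned coding bases, with a longest shared run of 62 bases, and Serpinb6a and Serpinb6b were 86.3% identical, with a longest run of 57 bases. The other 13 pairs of members were between 64.1% and 70.8% identical. Despite this likeness, only 0.378% of the 50-base words in Serpinb9 transcripts also occurred in another gene, all of them in Serpinb9b. The share was 5.38% in Serpinb9b, most of it with Gm36099, and 2.92% in Serpinb6b. It was 25.1% in Serpinb6a, where Nqo2 shared the most words, 10.4% in Serpinb2 and 0.165% in Serpinb8. In Serpinb2, 12.4% of exon bases are shared with Serpinb10 on the same strand, which had 0 to 22 counts a library, and in Serpinb9b 8.3% overlap the antisense gene Gm36099.

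The bases just upstream of the RefSeq starts of Serpinb9, Serpinb9b, Serpinb2 and Serpinb8 are shown. The first pair was higher in both stimulated groups, while the Serpinb2 and Serpinb8 levels went other ways. That pattern was not particular to the pair, as Serpinb6a was also higher in both. Over the 12 libraries the Pearson r of Serpinb6a was 0.873 with Serpinb9b and 0.838 with Serpinb9, beside 0.837 between Serpinb9 and Serpinb9b. Each run is the 250 bases before the start, 5′ to 3′, from RefSeq on GRCm38.p6, and none of the 4 windows holds an annotated exon base. The Serpinb9 window lies in an intron of the gene as GENCODE draws it, which starts further upstream. Capitals mark matches to 5 motifs searched on both strands, AP-1 (TGANTCA), PU.1 (GAGGAAGT), NF-kB (GGGA and TTTCC with 1 base between them), STAT6 (TTC and GAA with 4 bases between them) and the interferon response element (GAAA and GAAA with 2 bases between them).
Serpinb9, chr13:33004291-33004540, plus strand: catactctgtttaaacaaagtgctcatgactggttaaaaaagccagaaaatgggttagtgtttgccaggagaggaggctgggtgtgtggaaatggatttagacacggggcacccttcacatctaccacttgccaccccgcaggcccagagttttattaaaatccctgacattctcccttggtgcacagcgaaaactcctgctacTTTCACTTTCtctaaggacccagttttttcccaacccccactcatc
Serpinb9b, chr13:33027164-33027413, plus strand: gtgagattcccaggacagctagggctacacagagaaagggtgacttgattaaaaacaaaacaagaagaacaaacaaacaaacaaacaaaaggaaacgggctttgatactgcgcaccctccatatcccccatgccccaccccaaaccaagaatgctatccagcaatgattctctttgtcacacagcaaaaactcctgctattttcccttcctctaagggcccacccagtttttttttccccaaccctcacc
Serpinb2, chr1:107511173-107511422, plus strand: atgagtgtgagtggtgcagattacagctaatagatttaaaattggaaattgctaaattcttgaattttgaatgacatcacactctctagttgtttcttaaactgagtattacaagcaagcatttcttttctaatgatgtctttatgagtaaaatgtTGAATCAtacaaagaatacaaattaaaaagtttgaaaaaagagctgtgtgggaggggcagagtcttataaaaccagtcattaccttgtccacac
Serpinb8, chr1:107589756-107590005, plus strand: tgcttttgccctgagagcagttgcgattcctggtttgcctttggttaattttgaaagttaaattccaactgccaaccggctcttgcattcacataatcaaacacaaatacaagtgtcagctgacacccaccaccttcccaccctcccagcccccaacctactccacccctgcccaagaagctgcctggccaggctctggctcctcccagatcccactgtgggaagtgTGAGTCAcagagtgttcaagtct
The Serpinb9 and Serpinb9b windows shared a run of 13 bases, aaaactcctgcta, which began 60 bases before the start of Serpinb9 and 64 bases before that of Serpinb9b. Over the other 14 pairs of members the longest shared run of the first windows was 6 to 10 bases. The Serpinb9 window held 1 match to the interferon response letters, read on the minus strand, at 46 to 37 bases before the start, 1 base after the shared run. Serpinb9b had no match to any of the 5 motifs at the same place or elsewhere in its window. The Serpinb2 and Serpinb8 windows each held 1 match to the AP-1 letters, at 94 to 88 and at 23 to 17 bases before the start. A window of Serpinb6a, not shown, also held 1 interferon response match, at 84 to 75 bases before the start. The Serpinb6b window had no match. Among 32851 promoter windows of the same length, 2.98% held the interferon response letters, 6.75% the AP-1 letters, 5.85% the STAT6 letters, 2.44% the PU.1 letters and 0.356% the NF-kB letters.

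Serpinb9b, which has been reported to inhibit granzyme M, was low in unstimulated osteoclasts and higher in all 8 stimulated libraries. It stood at 2.74, 1.78, 2.68 and 2.52 CPM in the 4 OCsCtr libraries, at 12.1, 7.63, 11.5 and 9.87 CPM in OCsEo, and at 7.62, 6.37, 10.2 and 11.3 CPM in OCsEoS. No stimulated library overlapped with an OCsCtr library, while the OCsEo and OCsEoS ranges overlapped with each other. The log2 fold change against OCsCtr was 2.08 (SE 0.21, 4.23-fold) with eosinophils and 1.87 (SE 0.21, 3.65-fold) with supernatant. Between the stimulated groups the log2 fold change of OCsEoS against OCsEo was −0.21, with an interval from −0.63 to 0.20 and an adjusted p of 0.741 in edgeR's test, so a difference was not detected and the interval allows one of either sign.

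Serpinb9, the inhibitor of granzyme B, showed the same order of groups with a smaller difference. Its levels were 5.82, 5.67, 7.42 and 6.10 CPM in OCsCtr, 15.8, 8.61, 9.72 and 11.6 CPM in OCsEo and 12.6, 10.8, 10.2 and 8.72 CPM in OCsEoS. The lowest stimulated library, at 8.61 CPM, was above the highest OCsCtr library. The log2 fold change against OCsCtr was 0.87 (SE 0.18, 1.83-fold) in OCsEo and 0.76 (SE 0.18, 1.69-fold) in OCsEoS. OCsEoS against OCsEo gave a log2 fold change of −0.11 (interval −0.48 to 0.26, adjusted p 0.858), and without the highest OCsEo library this difference was 0.07.

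Serpinb2, also called plasminogen activator inhibitor 2, an inhibitor of urokinase, differed between the stimulations. It stood at 1.46, 1.19, 1.77 and 3.36 CPM in OCsCtr, at 7.14, 7.68, 8.82 and 5.58 CPM in OCsEo and at 1.96, 2.87, 2.08 and 2.04 CPM in OCsEoS. All OCsEo libraries were above every library of the other groups, and the OCsEoS libraries lay within the OCsCtr range. The log2 fold change against OCsCtr was 1.91 (SE 0.28, 3.76-fold) in OCsEo and 0.20 (SE 0.29, 1.15-fold) in OCsEoS, and without the highest OCsCtr library, replicate 4, these were 2.31 and 0.60. OCsEoS was lower than OCsEo by a log2 fold change of −1.71 (SE 0.28, interval −2.29 to −1.12, adjusted p 0.00496 in edgeR's test), and Serpinb2 stayed called lower with each library left out in turn.

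Some markers of granulocytes moved with Serpinb2. Of 10 eosinophil markers 5 passed the filter, of which 2, Alox15 and Siglecf, were called higher in OCsEo against OCsCtr, where 3.27% of all genes were. Alox15 was at 0.104 to 0.653 CPM in OCsCtr, 6.24 to 16.7 CPM in OCsEo and 0.178 to 1.13 CPM in OCsEoS, while Siglecf averaged 0.428, 2.94 and 0.827 CPM in the same order. Prg2 averaged 5.53, 5.49 and 0.815 CPM, and Ccr3 was at 59.6, 48.7 and 50.7 CPM, with a log2 fold change of −0.29 in OCsEo (adjusted p 0.0164 in edgeR's test). Epx, a defining eosinophil granule gene, had 0 to 18 counts in the OCsEo libraries and 0 in each OCsEoS library. The summed level of the 10 eosinophil markers was 57.1 to 73.7 CPM in OCsCtr, 60.1 to 82.2 in OCsEo and 49.3 to 55.5 in OCsEoS, most of it from Ccr3. Of 9 neutrophil markers 2 were called higher in OCsEo against OCsCtr, where 3.27% of all genes were. In OCsEoS against OCsEo 3 of the 9 were called lower, where 0.307% of all genes were. The summed level of the 9 neutrophil markers was 312 to 455 CPM in OCsCtr, 456 to 610 in OCsEo and 357 to 425 in OCsEoS. The part of these cells in the Serpinb2 result was not tested.

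Serpinb6a and Serpinb6b were the most abundant of the 6 genes. Serpinb6a, the counterpart of human SERPINB6, which inhibits cathepsin G, stood at 232, 210, 229 and 246 CPM in OCsCtr, at 301, 283, 319 and 351 CPM in OCsEo and at 318, 279, 295 and 268 CPM in OCsEoS. Both stimulated groups lay entirely above OCsCtr, with log2 fold changes of 0.45 (SE 0.07) in OCsEo and 0.34 (SE 0.07) in OCsEoS, under the cut-off of 0.5. OCsEoS against OCsEo gave −0.11 on the log2 scale (interval −0.26 to 0.04, adjusted p 0.595). Of the exon bases of Serpinb6a, 14.1% overlap Nqo2, which had 1302 to 2099 counts a library and a log2 fold change of 0.25 in OCsEo and 0.29 in OCsEoS against OCsCtr, and 4.46% overlap Ripk1, both on the opposite strand. The strand setting of the counting is not given in the sources used here, so reads in these overlaps may belong to either gene.

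Serpinb6b was lower with supernatant than with eosinophils. Serpinb6b levels were 122, 127, 133 and 108 CPM in OCsCtr, 154, 140, 164 and 142 CPM in OCsEo and 109, 106, 129 and 114 CPM in OCsEoS. The OCsEo libraries were all above both other groups, which overlapped with each other. The log2 fold change against OCsCtr was 0.29 (SE 0.08) in OCsEo and −0.10 (SE 0.08) in OCsEoS. OCsEoS against OCsEo gave −0.39 (SE 0.08, interval −0.55 to −0.23, adjusted p 0.0225), which passed the test on adjusted p but not the fold cut-off. The adjusted p rose above 0.05 in 5 of the 12 fits that left out a library, to 0.0535 without OCsEo replicate 1, 0.0556 without OCsEo replicate 3, and 0.0786, 0.0542 and 0.0607 without OCsEoS replicates 1, 2 and 4, while the log2 fold change stayed between −0.45 and −0.35.

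Serpinb8, an inhibitor of the proprotein convertase furin, was the member that was lower in both stimulated groups. It stood at 113, 98.6, 101 and 111 CPM in OCsCtr, at 84.5, 92.2, 83.7 and 96.8 CPM in OCsEo and at 89.8, 91.1, 83.2 and 79.0 CPM in OCsEoS. Every stimulated library was below every OCsCtr library. The log2 fold changes against OCsCtr were −0.25 (SE 0.07) in OCsEo and −0.30 (SE 0.07) in OCsEoS, under the fold cut-off of 0.5, so Serpinb8 was not called. OCsEoS against OCsEo gave −0.06 (interval −0.21 to 0.09, adjusted p 0.812).

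**Figure D1:**
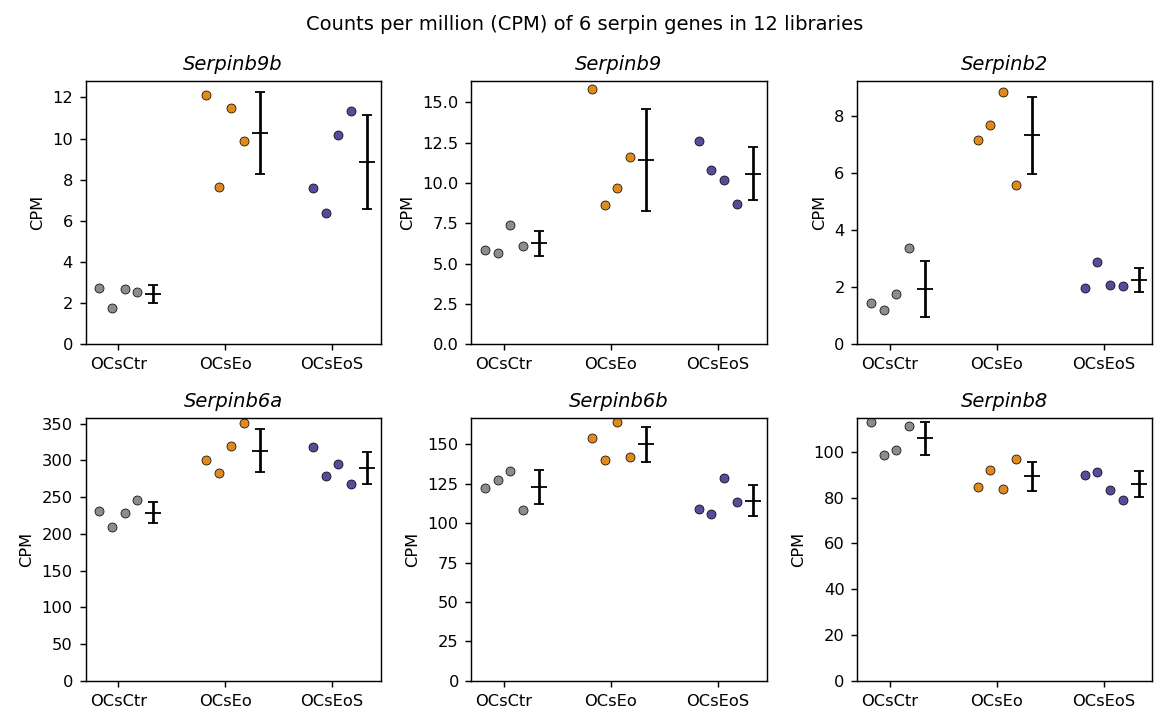
Level of each of the 6 serpin genes in CPM by group, on axes from 0. Each point is 1 of 4 libraries, and the bar beside them is the mean ± SD. Serpinb9b, Serpinb9 and Serpinb6a are higher in both stimulated groups, Serpinb2 and Serpinb6b in OCsEo, and Serpinb8 is lower in both. The lowest OCsEo library of Serpinb2, at 5.58 CPM, is above every library of the other groups. The differences of Serpinb6a, Serpinb6b and Serpinb8 are under the fold cut-off.

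Counted over the 6 genes, 3 were called higher against OCsCtr in OCsEo (Serpinb2, Serpinb9 and Serpinb9b), where 5.88% of all genes tested were called, 3.27% higher and 2.61% lower. With supernatant 2 were called higher (Serpinb9 and Serpinb9b), where 7.73% of all genes were called, 3.63% higher and 4.11% lower. By adjusted p alone, without the fold cut-off, all 6 members passed in OCsEo and 4 in OCsEoS, beside 17.4% and 23.0% of all genes. These passes are from the fit on all libraries, and whether each holds with a library left out is not reported here. Groups did not overlap for 5 members higher and 1 lower in OCsEo, against 10.5% and 10.9% of all genes, and for 3 higher and 1 lower in OCsEoS, against 12.6% and 13.1%. These counts describe how the members were chosen, and both comparisons share the OCsCtr libraries. The rule did not name OCsEoS against OCsEo, though the stimulated libraries are those of the other comparisons. The members were chosen with earlier results of these data known, so the counts of members in this comparison are a description too. There 1 member, Serpinb2, was called lower, where 0.380% of all genes were called and 0.307% were lower. Serpinb2 and Serpinb6b, 2 of the 6, passed on adjusted p alone, where 0.592% of all genes did, though Serpinb6b lost this in 5 of the 12 fits that left out a library and Serpinb2 in 0. The same 2 were lower without overlap, as 3.06% of all genes were. The median log2 fold change of the 6 was 0.66 in OCsEo and 0.27 in OCsEoS against OCsCtr, and −0.16 in OCsEoS against OCsEo, beside medians over all genes of −0.007, −0.006 and 0.002.

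**Figure D2:**
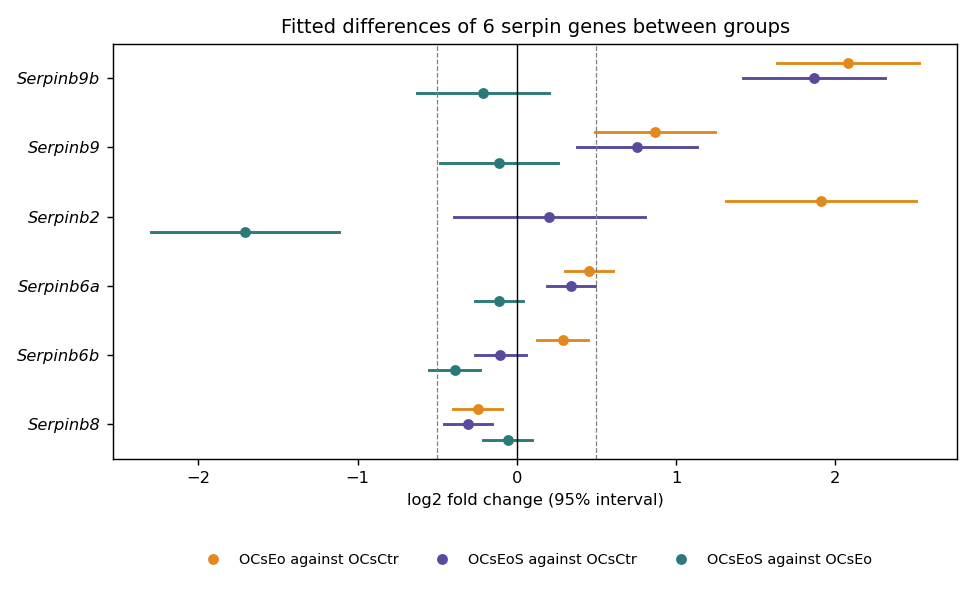
Fitted log2 fold change (point) and its 95% interval (line) of each member in the 3 comparisons between groups, with dashed lines at the cut-off of 0.5 in either direction. The interval of Serpinb2 in OCsEoS against OCsEo, from −2.29 to −1.12, lies entirely below the cut-off, while those of Serpinb9b, Serpinb9, Serpinb6a and Serpinb8 span 0.

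The members fell into 2 tiers of abundance. Divided by gene length, in CPM per kilobase, OCsCtr had Serpinb6b at 55.8 ± 4.81 (SD, n = 4), Serpinb6a at 42.4 ± 2.71, Serpinb8 at 22.1 ± 1.52, Serpinb9 at 1.79 ± 0.229, Serpinb2 at 0.827 ± 0.414 and Serpinb9b at 0.747 ± 0.136. Neighbours in this order did not overlap except for Serpinb2 and Serpinb9b. In OCsEo the order per length was Serpinb6b at 68.2, Serpinb6a at 57.9, Serpinb8 at 18.6, Serpinb9 at 3.28, Serpinb9b at 3.16 and Serpinb2 at 3.11, where Serpinb6b overlapped with Serpinb6a and the last 3 overlapped with their neighbours. In OCsEoS Serpinb6a, at 53.6, and Serpinb6b, at 52.0, overlapped, as did Serpinb9 at 3.03 and Serpinb9b at 2.72, while Serpinb8 at 17.9 and Serpinb2 at 0.952 stood clear of their neighbours. Serpinb9b was thus level with Serpinb2 in OCsCtr, with both Serpinb9 and Serpinb2 in OCsEo, and with Serpinb9 but not Serpinb2 in OCsEoS.

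**Figure D3:**
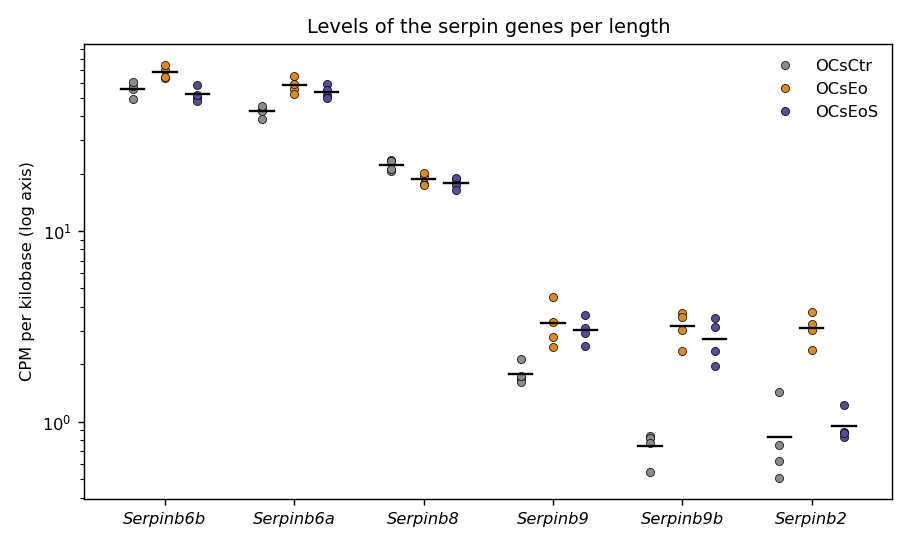
CPM per kilobase of gene length, on a log axis, for each member in the 3 groups of 4 libraries, with points for libraries and black lines for means. Serpinb6b, Serpinb6a and Serpinb8 lie above 16 in every library, and Serpinb9, Serpinb9b and Serpinb2 below 5.

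The levels of the 6 genes summed to 468 ± 15.9 CPM (SD, n = 4) without stimulation, 582 ± 33.1 with eosinophils and 512 ± 26.8 with supernatant, of which Serpinb6a took 48.9%, 53.8% and 56.6%. Serpinb8 took 22.6% in OCsCtr, 15.4% in OCsEo and 16.8% in OCsEoS, and Serpinb9b 0.517%, 1.76% and 1.74%. The sum over the 28 clade B serpins in the table was 494, 608 and 545 CPM, so most clade B counts came from the 6 members in each group. Members of the upper tier varied less within groups than those of the lower tier. The SD within groups on the log2 scale was 0.10 for Serpinb8, 0.11 for Serpinb6a and 0.12 for Serpinb6b, 0.27 for Serpinb9, 0.32 for Serpinb9b and 0.42 for Serpinb2, which had 40 to 108 counts in an OCsCtr library. In CPM the SD of Serpinb2 was 50.1% of its mean in OCsCtr, 18.4% in OCsEo and 18.9% in OCsEoS.

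The genes whose levels followed those of Serpinb9b most closely over the 12 libraries were Ccnd3, the cyclin D3 gene (Pearson r 0.984 in log2 CPM), Slc11a1, a metal transporter of phagosomes (0.979), Lilr4b (0.977), Ptgr1 (0.976) and Rnh1, the ribonuclease inhibitor (0.975), out of 10630 candidates. Slc11a1 averaged 147 CPM without stimulation, 272 with eosinophils and 286 with supernatant, and Lilr4b at 20.2, 43.7 and 39.3 CPM. For Serpinb2 the closest genes were Ctse (0.966), Gpnmb (0.948) and Ctsd (0.939), where Ctse and Ctsd encode the aspartic proteases cathepsin E and cathepsin D. Gpnmb averaged 1124 CPM without stimulation, 2347 with eosinophils and 1291 with supernatant. The closest gene to Serpinb6a was Necap2 (0.978), to Serpinb6b 2610203C22Rik (0.948), to Serpinb8 Pdcd6ip (0.963) and to Serpinb9 Ing1 (0.950). These correlations are over libraries of 3 groups, so any genes that differ between the groups alike score high, and they are given without a test.

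The other 62 serpins of the table were mostly silent. Of these 36 had no count in any library, 10 had at most 22 counts in a library, and 16 passed the filter. Serpine2, or protease nexin-1, an inhibitor of thrombin and urokinase, was lower in both stimulated groups. It stood at 48.8, 51.9, 55.6 and 68.5 CPM in OCsCtr, at 29.2, 29.8, 27.2 and 35.3 CPM in OCsEo and at 30.5, 33.5, 29.4 and 21.8 CPM in OCsEoS. Its log2 fold change was −0.89 (SE 0.13, adjusted p 7.45e-05 in edgeR's test) in OCsEo and −0.97 (SE 0.13, adjusted p 2.58e-05) in OCsEoS, opposite to Serpinb9b.

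Serpind1, heparin cofactor II, was also lower in both stimulated groups. It stood at 40.8 to 54.0 CPM in OCsCtr, 20.2 to 36.8 CPM in OCsEo and 23.0 to 34.8 CPM in OCsEoS, with log2 fold changes of −0.69 (SE 0.15, adjusted p 0.00385 in edgeR's test) and −0.71 (SE 0.15, adjusted p 0.00223). Serpinb1a, an inhibitor of neutrophil elastase, was called higher in OCsEoS against OCsCtr, at a log2 fold change of 0.57 (SE 0.14, adjusted p 0.00559), and gave 0.18 (adjusted p 0.445) in OCsEo. Without OCsCtr replicate 4 its value in OCsEoS was 0.47, under the fold cut-off. OCsEoS against OCsEo for Serpinb1a gave 0.39 with an adjusted p of 0.266, so the groups were not shown to differ. In all, 0 of these 16 serpins were called higher and 2 lower in OCsEo, where 3.27% and 2.61% of all genes were. In OCsEoS 1 was called higher and 2 lower, where 3.63% and 4.11% of all genes were. The median of their log2 fold changes was −0.38 in OCsEo and 0.02 in OCsEoS. Between the stimulated groups 0 were called in edgeR's test, beside 0.380% of all genes, and 0 were called by DESeq2. In edgeR's test 1 had an unadjusted p under 0.05 there, and the share of all genes at that p is not reported here. The collagen chaperone Serpinh1 had log2 fold changes of −0.65 (adjusted p 0.0685) in OCsEo and −0.42 (adjusted p 0.226) in OCsEoS.

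**Figure D4:**
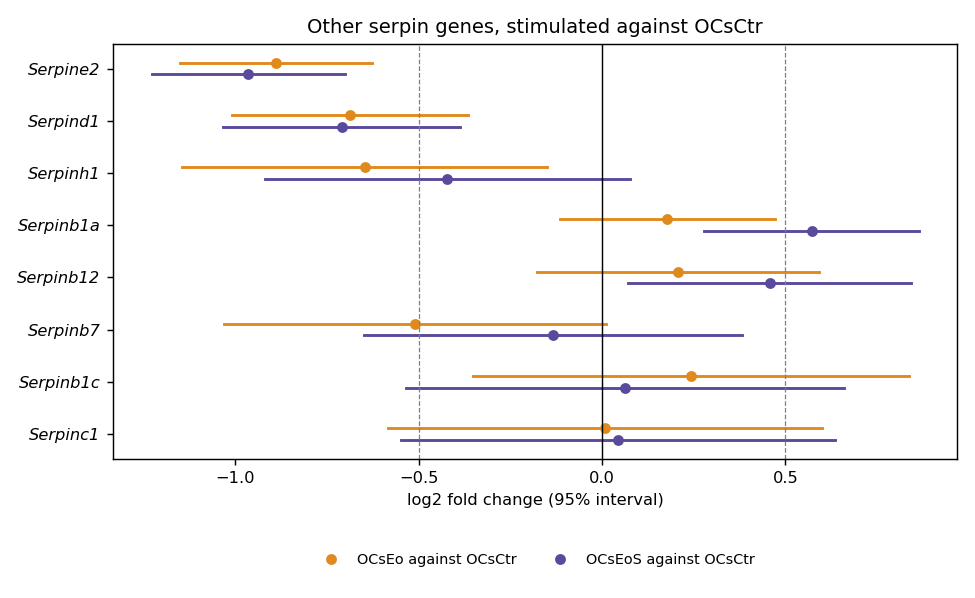
Fitted log2 fold change (point) and 95% interval (line) of the 8 other serpins tested with a mean level of at least 1 CPM and an SE under 0.3 in both comparisons, OCsEo and OCsEoS each against OCsCtr, from the most to the least abundant, with dashed lines at 0.5 in either direction. Serpine2 and Serpind1 lie to the left in both comparisons.

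The proteases that these serpins inhibit, and their partners, were examined as a list of 16 genes, of which 10 passed the filter. Granzymes B and M, the targets of Serpinb9 and Serpinb9b, had at most 7 counts in a library. Gzmb was at 0 counts in 11 of 12 libraries and at 6 in the other, and Gzmm at 0 to 7 counts. Gzma, another granzyme, was at 0 in 10 libraries and reached 23 counts, or 0.611 CPM, in OCsEo replicate 2, and Prf1 and Plg had 0 counts in every library. A count of 0 allowed levels up to 0.0769 to 0.107 CPM, for counting error only.

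The partners of Serpinb2 in plasminogen activation were expressed. Plau, which encodes urokinase, stood at 32.8, 28.7, 34.4 and 28.3 CPM in OCsCtr, at 55.3, 40.3, 47.2 and 38.1 CPM in OCsEo and at 45.7, 37.5, 35.4 and 43.4 CPM in OCsEoS. Its log2 fold change was 0.54 (SE 0.12, adjusted p 0.00257 in edgeR's test) in OCsEo, which was called higher, and 0.38 (SE 0.12, adjusted p 0.0211) in OCsEoS, under the fold cut-off. Plau fell under the cut-off in OCsEo as well without OCsCtr replicate 4 (0.4998) or OCsEo replicate 1 (0.43). Plaur, the urokinase receptor, was called higher in OCsEoS, at a log2 fold change of 0.70 (SE 0.12, adjusted p 3.97e-04), and gave 0.39 (adjusted p 0.0335) in OCsEo. Neither was shown to differ between OCsEoS and OCsEo (adjusted p 0.639 for Plau and 0.335 for Plaur), and Plat was at most 0.877 CPM.

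Of 3 neutrophil serine proteases, which clade B serpins inhibit, Elane and Ctsg were called higher with eosinophils. Elane, neutrophil elastase, gave a log2 fold change of 0.99 (SE 0.17, adjusted p 3.80e-04 in edgeR's test) in OCsEo and 0.40 (adjusted p 0.0905) in OCsEoS, and Ctsg, cathepsin G, 0.66 (SE 0.22, adjusted p 0.0410) and 0.19 (adjusted p 0.589). The Ctsg groups overlapped, with 7.65 to 8.80 CPM in OCsCtr and 7.34 to 19.3 CPM in OCsEo, and Ctsg lost its call in 7 of the 12 fits that left out a library, at an adjusted p of 0.209 without OCsEo replicate 3, 0.103 without OCsCtr replicate 4 and 0.0680 to 0.0784 without OCsCtr replicates 1, 2 or 3 or OCsEo replicates 1 or 2. Prtn3, proteinase 3, gave 0.42 (adjusted p 0.129) and −0.07 (adjusted p 0.830). Elane is also among the neutrophil markers described above. Furin, the target of Serpinb8, was lower by a log2 fold change of −0.32 in both groups (adjusted p 0.00711 in OCsEo and 0.00632 in OCsEoS), under the fold cut-off. The list was chosen with earlier results of these data known, so its counts beside the shares of all genes are a description. In all, 3 of the 10 were called higher in OCsEo (Plau, Ctsg and Elane), where 3.27% of all genes were. In OCsEoS 1 was called higher (Plaur), where 3.63% of all genes were. Between the stimulated groups edgeR called 0 of the proteases, beside 0.380% of all genes, and DESeq2 called 0. There 4 of the list had an unadjusted p under 0.05 in edgeR's test, and the share of all genes at that p is not reported here. The list's median log2 fold change was 0.32 in OCsEo and −0.08 in OCsEoS against OCsCtr, and −0.17 in OCsEoS against OCsEo. Over all genes these medians were −0.007, −0.006 and 0.002.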

How the data were processed

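Libraries were prepared from total RNA with a NEBNext Ultra kit. The authors trimmed reads with fastp, aligned them to mm10 with HISAT2 (version 2.0.5) and counted reads per gene with featureCounts; handling of strand and of reads with several matches is not given in the sources used here. The deposited values are raw counts per gene, 1 column a library.

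Counts were analysed with edgeR 4.0.16 in R 4.3.3 (limma 3.58.1): genes were kept by filterByExpr with a minimum count of 10, scaled by TMM (factors 0.968 to 1.03), and fitted with the quasi-likelihood model over all 12 libraries in 3 groups, with no covariate. A call needed p under 0.05 after Benjamini-Hochberg adjustment and a log2 fold change beyond 0.5 either way. DESeq2 1.42.0 was an alternative, and the others were the scaling, the filter, the thresholds, a replicate block and leaving out each library. Replicates of a group differed by more than sampling noise (chi-square per degree of freedom 9.99 to 35.7 over 18 pairs). Coordinates come from GENCODE on GRCm38 and matched the deposited ones for all 6 genes. Shared words were counted over annotated transcripts. Promoter windows came from RefSeq on GRCm38.p6.

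The members, the gene lists and the markers were chosen with earlier results of these data known. Genes named in the text come from the members, the other serpins that passed the filter, the list of proteases and partners, the marker lists, and the 5 genes for Serpinb9b and 3 for each other member with the highest Pearson r over the 12 libraries, among tested genes averaging 1 or more in log2 CPM. Genes overlapping a member were added after their values were seen. The result of 1 other serpin is not reported here.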

Additional observations from a re-analysis of the deposited data

Results flagged for a closer look

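In 4 of 66 groups of libraries over 22 tested serpins, 1 library stood apart from the other 3 by Dixon's criterion, which chance meets in about 1 of 20 groups. Serpinb2 was at 2.87 CPM in OCsEoS replicate 2, with the next library at 2.08. Serpinb12 was at 6.72 CPM in OCsCtr replicate 4, with the next at 4.98, and Serpinb1a was at 9.39 CPM in the same library, under the next at 12.3. Serpinb1c was at 3.09 CPM in OCsEoS replicate 3, with the next at 2.32.

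Serpinb2 differed between the 2 stimulated groups in edgeR's test, with a log2 fold change of −1.71 for OCsEoS against OCsEo (adjusted p 0.00496). The part of eosinophils left in the OCsEo cultures was not tested.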

How the results depend on the processing

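No member gained or lost a call (adjusted p and fold cut-off together) under the alternative scalings, filters, tool, block and left-out libraries. The fold cut-off alone was crossed by Serpinb2 in OCsEoS against OCsCtr, whose log2 fold change went from 0.20 to 0.60 without OCsCtr replicate 4. Serpinb6b crossed the adjusted p alone in OCsEoS against OCsEo. Its adjusted p rose from 0.0225 to between 0.0535 and 0.0786 in 5 of 12 fits that left out a library. Adjusted p values of members against OCsCtr are not reported here for these fits. Serpinb8 in OCsEo against OCsCtr was at −0.22 (SE 0.08) without OCsCtr replicate 1. Directions held in all but the uncalled Serpinb9 difference of OCsEoS against OCsEo, which turned from −0.11 to 0.07 without OCsEo replicate 1. With each library left out 3, 2 and 1 members stayed called in OCsEo and in OCsEoS against OCsCtr and in OCsEoS against OCsEo. With adjusted p alone, 6, 4 and 2 members were called in these 3 comparisons, 2382, 3151 and 81 of all genes, and 5 and 3 of the proteases in the first 2. With an absolute log2 fold change over 1, 136, 160 and 21 of all genes were called, 1 member in OCsEoS against OCsCtr, and 0 of the other serpins and 0 of the proteases against OCsCtr. Without a filter on low counts, OCsEoS against OCsEo gave 100 genes and 1 protease. Leaving out 1 library moved the count of all genes there from 52 to between 17 (without OCsEoS replicate 3) and 62 (without OCsEoS replicate 2), and it also fell by over 1.5 times without OCsEo replicate 2 (27), OCsEo replicate 3 (34) and OCsEoS replicate 4 (34). The count of proteases moved to between 1 and 3 in OCsEo, at 1 without OCsCtr replicate 4 or OCsEo replicate 1, and to between 1 and 2 in OCsEoS, at 2 without OCsCtr replicate 2. Without division by length the rank changed for 4 members in OCsCtr and 2 in OCsEo. Causes were not tested beyond the construction of each alternative.

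The labels do not say whether same-numbered libraries belong together, and the values did not settle it. Deviations of same-numbered libraries from their group means correlated at −0.0418 to 0.0971 over 12 pairs. Still, 8 of the 12 matched best with their own number among the 4 libraries of the other group. With the replicate number as a block, 854, 1108 and 67 genes were called in place of 804, 1058 and 52, Serpinb2 in OCsEoS against OCsEo gave −1.72, and the calls of members numbered 3, 2 and 1 as before. Counting noise weighs most on the members with the fewest counts, Serpinb2 and Serpinb9b, and on genes at the floor, such as the granzymes. Over the tested genes, replicates differed by more than this noise.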
